A study of Homo sapiens with 8 samples.

Results

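The baseline RNA of KASUMI-1 was set against that of THP-1, both human acute myeloid leukemia (AML) cell lines that had received vehicle only. Members were chosen by line and agent: 4 of the 8 libraries of the series, namely the KASUMI-1 vehicle libraries harvested at 6 h and at 72 h and the THP-1 vehicle libraries harvested at 24 h and at 72 h. The series set the lysine demethylase 1 (LSD1) inhibitor DDP38003 at 0.5 μM against vehicle in both lines, and its design names KASUMI-1 as the sensitive line and THP-1 as the resistant line. The 4 libraries here carried no inhibitor, and total RNA was made into TruSeq libraries for all of them. The 2 times of a line served as its replicates. Nothing in the labels says that these came from different cultures. The spread behind each p-value is therefore that between 2 libraries of a line, which may be technical and which also contains the difference in time. Only 72 h was sampled in both lines, and each line stands for its leukemia subtype as a single cell line.

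KASUMI-1 is known as a line with the RUNX1::RUNX1T1 fusion, in which the DNA-binding part of the core-binding factor RUNX1 is joined to the corepressor-binding protein RUNX1T1. THP-1 is known as a monocytic line with a KMT2A::MLLT3 fusion, in which the start of a histone methyltransferase is joined to a transcription elongation protein, and KMT2A fusions are known to hold the late HOXA genes and their partners active. RUNX1::RUNX1T1 leukemia is known for blasts that keep the stem cell antigen CD34 and the receptor KIT while making granule proteins such as myeloperoxidase. Monocytic leukemia is known for CD14, CD11b, the receptor CSF1R and lysozyme.

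The vehicle libraries held 41200025 and 23722972 counted reads in KASUMI-1 and 43392502 and 38199393 in THP-1, in the order of their times, which is kept below wherever a line has 2 values. Of 15456 genes tested, 8736 were called different by edgeR's quasi-likelihood F-test at an adjusted p under 0.05: 4080 (26.4%) were higher in KASUMI-1 and 4656 (30.1%) were higher in THP-1. Calls of at least 2-fold numbered 2580 (16.7%) higher in KASUMI-1 and 3283 (21.2%) higher in THP-1, together 37.9%. A call is thus the usual outcome for a gene here (56.5% in all), and a count within a gene list has to be read against these shares. The correlation of log2 CPM (counts scaled to library size) across genes was 0.992 between the KASUMI-1 libraries and 0.994 between the THP-1 libraries, and 0.843 to 0.853 between libraries of different lines. Genes are not independent replicates, so these are descriptions. Log2 ratios are KASUMI-1 over THP-1, and levels are CPM scaled by library composition. The standard error (SE) given is the absolute log2 ratio divided by the square root of the F statistic. Levels of different genes are compared only as RPKM, which also divides by gene length.

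**Figure D1:**
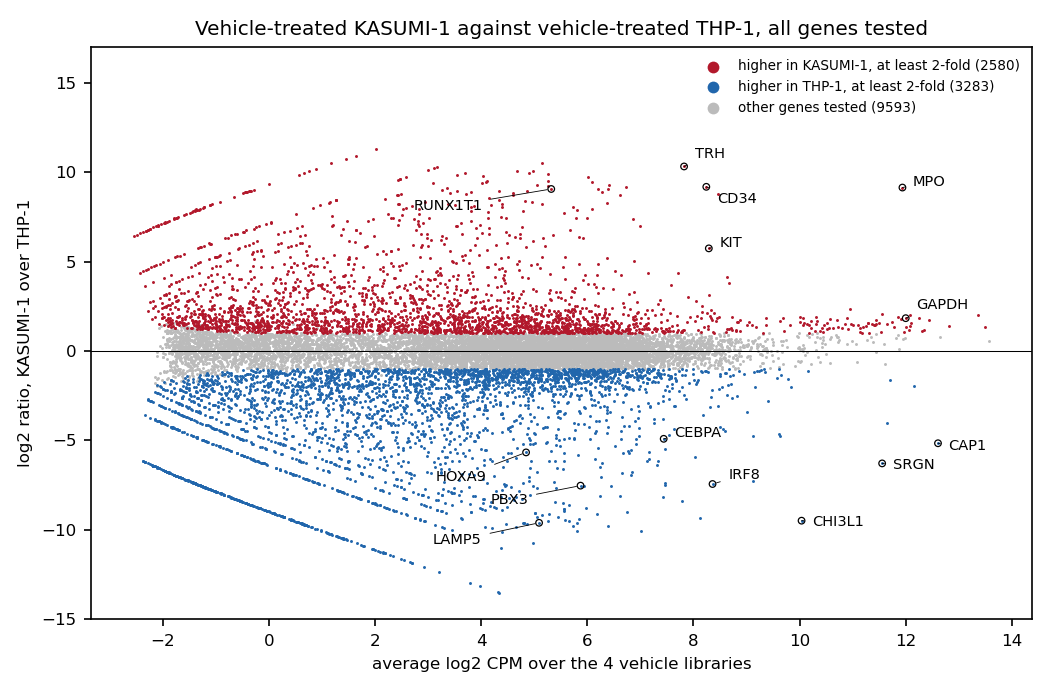
Each point is 1 of 15456 genes, with its average log2 CPM over the 4 vehicle libraries on the horizontal axis and its log2 ratio of KASUMI-1 over THP-1 on the vertical axis. Red points (2580) were called at least 2-fold higher in KASUMI-1 and blue points (3283) at least 2-fold higher in THP-1, and the slanted streaks are genes with few or no reads in one line, whose fitted ratio depends on the prior count.

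The markers fixed for each line mostly lay on the side of the label. CD33, fixed for both lines, was higher in THP-1 and is given below. ANPEP, also fixed for KASUMI-1, ranked 5256 of 13601 genes by RPKM in KASUMI-1 and 3314 in THP-1, and so stood higher in the ranking of THP-1. RUNX1T1, the fusion partner, had 77.2 and 83.4 CPM in KASUMI-1, against 0.172 and 0.12 CPM in THP-1 (log2 ratio 9.06, SE 0.279, adjusted p 8.8e-09). Its reads in THP-1 numbered 8 and 5, so RUNX1T1 was near absent there. RUNX1, which the fusion shares, had 159 and 168 CPM in KASUMI-1, against 97.7 and 105 CPM in THP-1, a 1.61-fold difference (adjusted p 0.00361). Gene-level counts do not separate the RUNX1 transcript from the fusion transcript. CD34, the sialomucin of stem and progenitor cells, had 563 and 648 CPM in KASUMI-1, against 1.12 and 0.96 CPM in THP-1 (9.18, SE 0.237, adjusted p 8.8e-09). KIT, the receptor for stem cell factor, had 512 and 718 CPM in KASUMI-1, against 8.26 and 14.8 CPM in THP-1, 53.3-fold. MPO, the myeloperoxidase of azurophil granules, had 6366 and 9304 CPM in KASUMI-1, against 13.3 and 14.5 CPM in THP-1, 564-fold. POU4F1, a POU-domain factor known from RUNX1::RUNX1T1 leukemia, had 11.9 CPM in each KASUMI-1 library and 2.49 and 1.99 CPM in THP-1 (2.40, SE 0.242). Of the markers fixed for KASUMI-1, RUNX1T1, CD34, KIT, MPO and POU4F1 were each called higher there, while CD33 was called higher in THP-1. RUNX1, which was not in that marker set, was also called higher in KASUMI-1, as were 26.4% of all genes tested.

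The THP-1 markers were also uneven. HOXA9, the homeobox gene most tied to KMT2A fusions, had 0.931 and 1.31 CPM in KASUMI-1, against 57.2 and 54.6 CPM in THP-1 (-5.68, SE 0.244, adjusted p 3.36e-08). Its usual partner MEIS1 had 2 reads in each KASUMI-1 library and 3 and 1 reads in THP-1, and was too low to test. MEIS1 was thus near 0 in both lines. CD14, the lipopolysaccharide co-receptor that defines monocytes, had 0 and 2 reads in KASUMI-1 and 37 and 24 reads in THP-1, which is 0.795 and 0.576 CPM. It was called higher in THP-1 (adjusted p 0.00118) yet stayed under 1 CPM, so the defining antigen of the monocytic label was nearly absent from these THP-1 libraries. ITGAM, the integrin chain CD11b, had 0.665 and 0.316 CPM in KASUMI-1, against 9.48 and 9.28 CPM in THP-1 (-4.16, SE 0.337). CSF1R, the macrophage colony-stimulating factor receptor, had 5.88 and 3.92 CPM in KASUMI-1, against 31.3 and 39.5 CPM in THP-1 (-2.83, SE 0.246). LYZ, lysozyme, had 30.0 and 38.6 CPM in KASUMI-1, against 906 and 533 CPM in THP-1 (-4.39, SE 0.275). CD33, the myeloid lectin carried by both subtypes, differed far less, with 47.3 and 55.6 CPM in KASUMI-1 and 98.2 and 79.2 CPM in THP-1 (-0.79, SE 0.18).

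The genes of the fusions' other partners were expressed in both lines. KMT2A had 106 and 117 CPM in KASUMI-1, against 49.1 and 61.2 CPM in THP-1 (1.01, SE 0.176). MLLT3 had 18.1 and 23.6 CPM in KASUMI-1, against 5.44 and 5.18 CPM in THP-1 (1.97, SE 0.223). Both were higher in the line without the KMT2A fusion, and a fusion read cannot be told from a read of the normal gene in these counts.

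**Figure D2:**
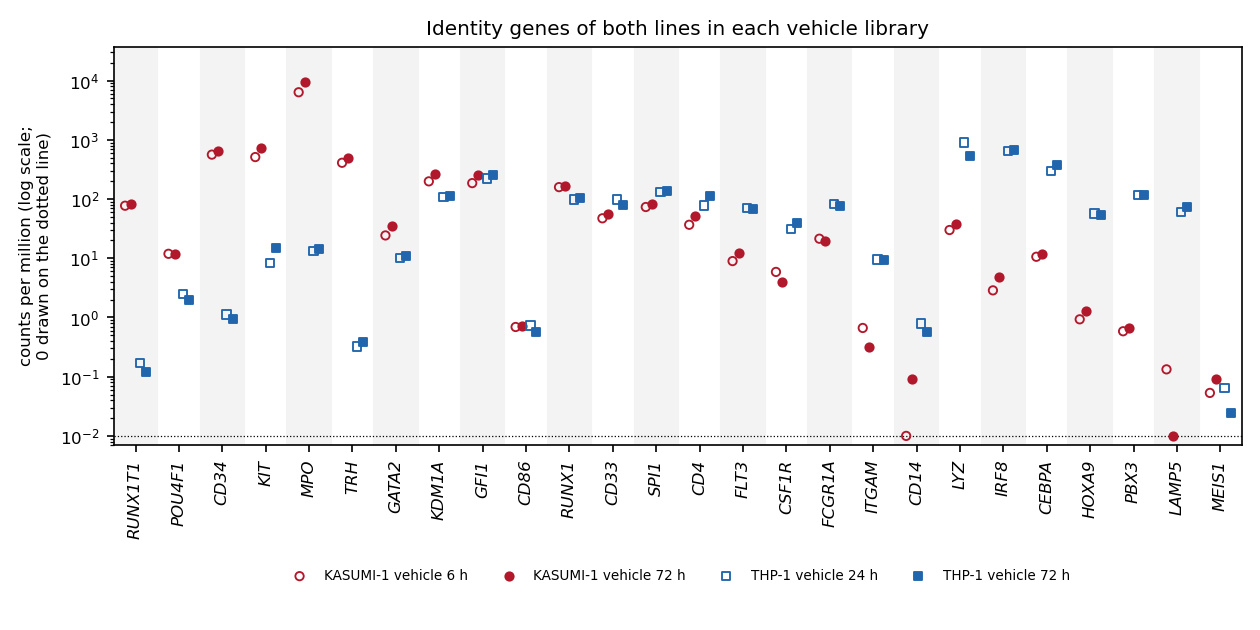
CPM on a log scale for 26 genes in the KASUMI-1 vehicle libraries (red circles, 6 h open and 72 h filled) and the THP-1 vehicle libraries (blue squares, 24 h open and 72 h filled). RUNX1T1, CD34, KIT, MPO and TRH stand high in KASUMI-1, IRF8, HOXA9, PBX3 and LAMP5 stand high in THP-1, GFI1 and CD86 overlap, and CD14 and MEIS1 lie under 1 CPM in all 4 libraries.

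Promoter letters are shown for 4 genes the results turn on: CD34 and IRF8, which stand high in one line each, and the neighbouring granule genes PRTN3 and AZU1, which were called in opposite directions. Each is the 250 bases before the RefSeq start on GRCh38.p14, 5′ to 3′ on the gene's strand. Capitals mark the core of the RUNX motif (TGTGGT) or of the PU.1 motif (GAGGAA) on either strand. The RUNX letters stood in 2981 of 27305 RefSeq promoters of this length (10.9%) and the PU.1 letters in 6393 (23.4%). No window shown holds both motifs.
CD34 (chr1:207911126-207911375, minus strand): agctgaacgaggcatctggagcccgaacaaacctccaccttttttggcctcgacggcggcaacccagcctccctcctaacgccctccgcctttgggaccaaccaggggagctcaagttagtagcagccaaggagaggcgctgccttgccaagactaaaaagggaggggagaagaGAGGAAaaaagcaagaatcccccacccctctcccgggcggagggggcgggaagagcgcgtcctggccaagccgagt
IRF8 (chr16:85902580-85902829, plus strand): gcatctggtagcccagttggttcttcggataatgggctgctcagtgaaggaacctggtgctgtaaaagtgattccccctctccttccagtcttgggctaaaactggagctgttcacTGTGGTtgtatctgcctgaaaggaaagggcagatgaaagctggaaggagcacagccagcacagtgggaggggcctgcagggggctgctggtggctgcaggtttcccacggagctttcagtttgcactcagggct
PRTN3 (chr19:840749-840998, plus strand): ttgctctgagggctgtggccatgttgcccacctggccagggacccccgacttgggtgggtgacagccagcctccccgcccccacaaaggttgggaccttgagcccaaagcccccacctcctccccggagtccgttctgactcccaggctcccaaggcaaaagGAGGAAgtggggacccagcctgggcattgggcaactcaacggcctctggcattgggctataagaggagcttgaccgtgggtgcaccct
AZU1 (chr19:827587-827836, plus strand): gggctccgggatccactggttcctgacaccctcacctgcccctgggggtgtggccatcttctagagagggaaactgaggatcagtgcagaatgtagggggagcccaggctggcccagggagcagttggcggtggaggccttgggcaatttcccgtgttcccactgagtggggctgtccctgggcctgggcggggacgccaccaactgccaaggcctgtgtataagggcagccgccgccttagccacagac
The PU.1 letters stood once in CD34 and once in PRTN3, the RUNX letters once in IRF8, and neither in AZU1. A match describes letters, not a bound site.

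Among progenitor surface antigens, 12 of 24 genes tested were called higher in KASUMI-1 and 10 higher in THP-1 (median log2 ratio 0.07, against -0.00206 over all genes tested). CD200, an immune checkpoint ligand, had 68.2 and 64.7 CPM in KASUMI-1, against 0.043 and 0.168 CPM in THP-1. CD69, an early activation lectin, had 50.8 and 47 CPM in KASUMI-1, against 0.129 and 0.072 CPM in THP-1. CD96, a nectin receptor carried by leukemic stem cells, had 105 and 108 CPM in KASUMI-1, against 0.408 and 0.384 CPM in THP-1. With CD34 these 3 genes had log2 ratios of 8.06 to 9.30. ESAM (log2 ratio 4.85), an adhesion molecule of stem cells and endothelium, and the hyaluronan receptor CD44 (2.81) were smaller differences of the same direction. In the other direction CD38, an ectoenzyme that cleaves NAD, had 2.69 and 3.83 CPM in KASUMI-1, against 40.4 and 34.5 CPM in THP-1. FLT3, a receptor kinase of progenitors, had 8.96 and 12.3 CPM in KASUMI-1, against 71.4 and 68.8 CPM in THP-1. PTPRC, the phosphatase CD45, had 36.2 and 30.5 CPM in KASUMI-1, against 240 and 260 CPM in THP-1. The progenitor list was therefore split between the lines, with CD34 and KIT on one side and FLT3 and CD38 on the other.

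Monocyte and macrophage surface antigens lay mostly on the side of THP-1: of 60 tested, 9 were called higher in KASUMI-1 and 34 higher in THP-1 (median -1.17). MS4A6A, a membrane protein of monocytes and macrophages, had 1.41 and 0.901 CPM in KASUMI-1, against 403 and 283 CPM in THP-1. LILRB4, an inhibitory receptor, had 0.319 and 0.541 CPM in KASUMI-1, against 69.2 and 98.7 CPM in THP-1. CCR2, the receptor for the monocyte attractant CCL2, had 1.01 and 0.811 CPM in KASUMI-1, against 181 and 168 CPM in THP-1. The chemokine receptors CCR1 (-7.41) and CX3CR1 (-6.90) and the scavenger receptor CD36 (-7.63) were also far higher in THP-1. MARCO, a scavenger receptor of macrophages, had no read in KASUMI-1 and 42 and 29 reads in THP-1, at least 16-fold higher. Signalling adapters of these receptors followed: TYROBP had 2.18 and 0.992 CPM in KASUMI-1, against 169 and 129 CPM in THP-1, and FCER1G had 4.47 and 3.16 CPM in KASUMI-1, against 218 and 180 CPM in THP-1. CD86, a costimulatory ligand much used to read LSD1 inhibition in AML cells, did not differ detectably, with 0.691 and 0.721 CPM in KASUMI-1 and 0.731 and 0.576 CPM in THP-1 (0.10, SE 0.371, adjusted p 0.829). CD4, carried by monocytic cells, had 36.8 and 50.8 CPM in KASUMI-1, against 77.5 and 111 CPM in THP-1 (-1.11).

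Of the integrin chains, 7 of 19 were called higher in KASUMI-1 and 7 higher in THP-1 (median 0.34). Without the THP-1 24 h library these were 4 higher in KASUMI-1 and 7 higher in THP-1, and without the KASUMI-1 6 h library the median was -0.14. The leukocyte chains were higher in THP-1: ITGB2, the shared beta chain CD18, had 35.6 and 40.6 CPM in KASUMI-1, against 272 and 294 CPM in THP-1. ITGAL, the alpha chain of LFA-1, had 2.02 and 2.03 CPM in KASUMI-1, against 61.6 and 83.4 CPM in THP-1. ITGAX, the alpha chain CD11c, had a log2 ratio of -3.41. ITGA9, a tenascin-binding chain, had 14.2 and 16.5 CPM in KASUMI-1, against 0.795 and 1.06 CPM in THP-1. ITGB1, the beta chain of matrix receptors, was 1.89-fold higher in KASUMI-1.

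Growth factor and cytokine receptors leaned to THP-1, with 17 of 57 called higher in KASUMI-1 and 31 higher in THP-1 (median -1.49). IL6R, the interleukin 6 receptor, had 5.11 and 3.34 CPM in KASUMI-1, against 271 and 295 CPM in THP-1. NOTCH2, a receptor for Delta and Jagged ligands, had 9.28 and 9.74 CPM in KASUMI-1, against 98.8 and 114 CPM in THP-1. TGFBR3, IL10RA and IL21R were further receptors higher in THP-1, with log2 ratios of -4.68, -4.02 and -3.95. IL2RG, the common gamma chain, had 106 and 150 CPM in KASUMI-1, against 0.559 and 0.912 CPM in THP-1. IGF1R, the receptor for insulin-like growth factor 1, had 35.3 and 46.1 CPM in KASUMI-1, against 2.49 and 2.76 CPM in THP-1. CSF3R, the granulocyte colony-stimulating factor receptor, had 434 and 546 CPM in KASUMI-1, against 70.3 and 102 CPM in THP-1. Receptors for the granulocyte and macrophage factors thus stood in opposite order, with CSF3R 5.67-fold higher in KASUMI-1 and CSF1R 7.13-fold higher in THP-1. Among cytokines, KITLG, the ligand of KIT, had 2.07 and 1.04 CPM in KASUMI-1, against 16.4 and 13.8 CPM in THP-1. The cytokine list as a whole had 8 of 30 genes called higher in KASUMI-1 and 14 higher in THP-1.

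The genes around the core-binding factor were mostly higher in THP-1, with 2 of 7 called higher in KASUMI-1 and 4 higher in THP-1. CBFB, the shared beta subunit that stabilises RUNX proteins on DNA, had 66.2 and 61.1 CPM in KASUMI-1, against 149 and 133 CPM in THP-1 (log2 ratio -1.15). RUNX2 and RUNX3, the other RUNX paralogs, had log2 ratios of -1.14 and -0.88. CBFA2T3, a relative of RUNX1T1 in the same corepressor family, had 8.7 and 6.67 CPM in KASUMI-1, against 15.9 and 22 CPM in THP-1. RUNX1T1 and RUNX1 were thus the members called higher in KASUMI-1.

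Genes reported high in RUNX1::RUNX1T1 leukemia were called higher in KASUMI-1 for 9 of 15 tested and higher in THP-1 for 5 (median 2.39). The list was compiled with results of these data known, and it includes the line's own markers. TRH, the precursor of thyrotropin-releasing hormone, had 410 and 496 CPM in KASUMI-1, against 0.322 and 0.384 CPM in THP-1, 1276-fold. CD79A, part of the B cell receptor complex, had 5.42 and 4.01 CPM in KASUMI-1, against 0.086 and 0.144 CPM in THP-1. NCAM1, the adhesion molecule CD56, had 1 read in each KASUMI-1 library and 503 and 501 reads in THP-1. Relative to library sizes scaled by composition, NCAM1 was 340 times higher in THP-1 (95% counting interval from 94.0 up to 2814). PRAME, a tumour antigen, was also higher in THP-1 (-3.55).

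Genes reported high in KMT2A-fusion leukemia were called higher in KASUMI-1 for 3 of 21 tested and higher in THP-1 for 13 (median -1.58). PBX3, the homeobox partner of HOXA9, had 0.585 and 0.676 CPM in KASUMI-1, against 117 and 115 CPM in THP-1 (-7.54, SE 0.236). LAMP5, a lysosome-associated membrane protein, had 5 and 0 reads in KASUMI-1 and 2835 and 3093 reads in THP-1 (-9.61). LGALS1, the lectin galectin 1, had 10.3 and 3.38 CPM in KASUMI-1, against 982 and 1237 CPM in THP-1. ZNF521, a zinc finger cofactor of progenitors, was 8.11-fold higher in THP-1. CDK6, the cell cycle kinase that KMT2A fusions are known to drive, was 1.68-fold higher in KASUMI-1 (451 and 407 CPM in KASUMI-1, against 240 and 270 CPM in THP-1).

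Along the HOXA cluster, 3 genes before HOXA7 were called higher in KASUMI-1 and the genes from HOXA7 on were called higher in THP-1. HOXA3 had 1.22 and 1.4 CPM in KASUMI-1, against 0.301 and 0.192 CPM in THP-1, and HOXA5 had 7.74 and 7.39 CPM in KASUMI-1, against 2 and 2.64 CPM in THP-1. HOXA2 was also called higher in KASUMI-1 (1.71), on few reads (17 and 14 in KASUMI-1, 8 and 6 in THP-1), and the call was lost with DESeq2 (adjusted p 0.12) and when a library was left out in 3 of 4 cases. HOXA4 and HOXA6 were not called, with log2 ratios of -0.98 and -1.07, though HOXA4 was called without the KASUMI-1 72 h library (-1.27, adjusted p 0.045). From HOXA7 on, all 5 genes tested were called higher in THP-1. HOXA10 was the closest of these, with 28 and 27.9 CPM in KASUMI-1 and 49.2 and 48.4 CPM in THP-1. HOXA11 had 5.98 and 8.79 CPM in KASUMI-1, against 25.8 and 29.9 CPM in THP-1, and HOXA13 had 1.04 and 2.25 CPM in KASUMI-1, against 18.3 and 19 CPM in THP-1. Of the HOXB genes, HOXB2, HOXB5, HOXB8 and HOXB9 had no read in any of the 4 libraries. HOXB3, HOXB4 and HOXB7 had no read in KASUMI-1 and HOXB6 had 1, and all 4 were called higher in THP-1 at low levels. In THP-1 HOXB4 had 115 and 87 reads, at least 45.6-fold higher. In the whole list of HOX genes and partners, 4 of 22 tested were called higher in KASUMI-1 and 12 higher in THP-1.

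**Figure D3:**
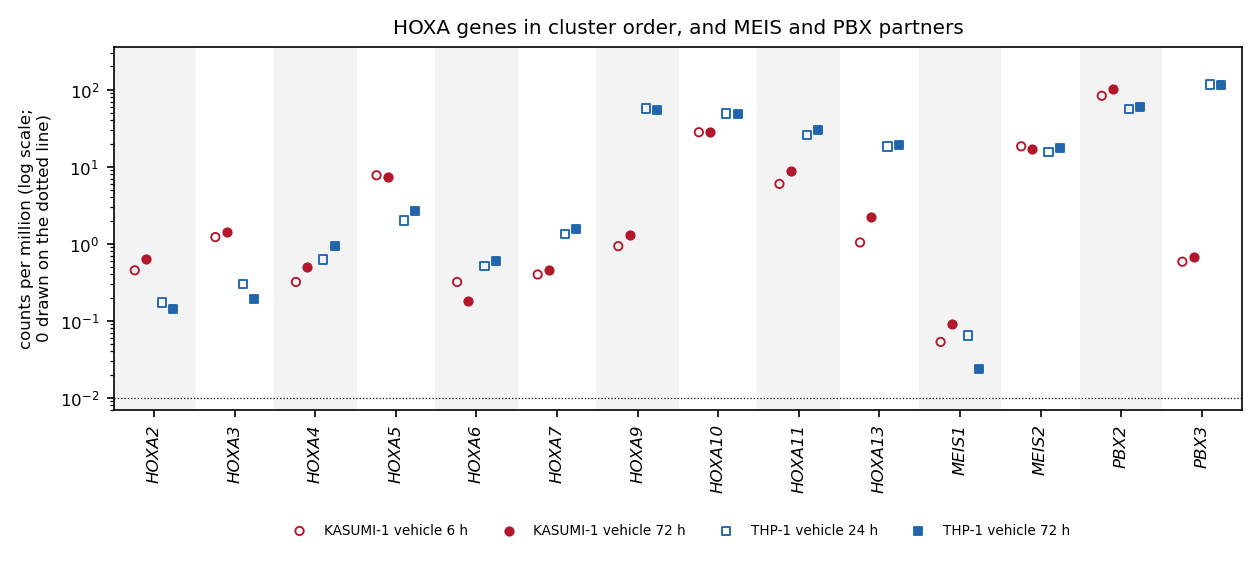
CPM on a log scale for the HOXA genes in their order along the cluster and for MEIS and PBX partner genes, with KASUMI-1 vehicle libraries as red circles and THP-1 vehicle libraries as blue squares. HOXA2, HOXA3 and HOXA5 are higher in KASUMI-1, HOXA7 to HOXA13 and PBX3 are higher in THP-1, and MEIS1 is near 0 in both lines.

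Stem and progenitor transcription factors were called higher in KASUMI-1 for 18 of 32 tested and higher in THP-1 for 7 (median 1.59). MYCN, a MYC family factor, had 31.6 and 38.1 CPM in KASUMI-1, against 0.043 and 0.048 CPM in THP-1. LIN28B, an RNA-binding protein of fetal progenitors, had 53 and 44.2 CPM in KASUMI-1, against 0.107 and 0.12 CPM in THP-1. BAALC, a marker of immature AML, had 109 and 79.9 CPM in KASUMI-1, against 0.451 and 0.456 CPM in THP-1. TAL1 (log2 ratio 6.96) and ERG (6.76), stem cell factors that bind with GATA2, and HMGA2 (6.52), a chromatin protein of fetal cells, were also higher in KASUMI-1. GATA2, itself a stem and mast cell factor, was closer, with 24.3 and 35.2 CPM in KASUMI-1 and 10.1 and 11 CPM in THP-1 (1.49, SE 0.222). TCF4, an E protein, had 0.106 and 0.0901 CPM in KASUMI-1, against 7.16 and 7.22 CPM in THP-1. ID2, an inhibitor of E proteins, had 22.6 and 7.48 CPM in KASUMI-1, against 91.4 and 82 CPM in THP-1. BMI1, a polycomb subunit, was 3.49-fold higher in THP-1. FLI1, an ETS factor that binds with LYL1, did not differ detectably (-0.03, SE 0.169), while LYL1 was higher in KASUMI-1 (2.33).

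Myeloid differentiation factors leaned to THP-1, with 9 of 43 called higher in KASUMI-1 and 26 higher in THP-1 (median -0.89). IRF8, which directs the monocyte and dendritic cell fates, had 2.87 and 4.78 CPM in KASUMI-1, against 645 and 661 CPM in THP-1 (-7.44, SE 0.273, adjusted p 1.63e-08). CEBPA, the factor of granulocyte and monocyte commitment whose level RUNX1::RUNX1T1 is known to lower, had 10.6 and 11.7 CPM in KASUMI-1, against 300 and 372 CPM in THP-1 (-4.92). KLF4, a monocyte factor, had 1 and 0 reads in KASUMI-1 and 400 and 370 reads in THP-1. Relative to library sizes scaled by composition, KLF4 was 522 times higher in THP-1 (95% counting interval from 93.4 up to 20644). SPI1, the gene of PU.1, differed little by comparison: 73.4 and 83.2 CPM in KASUMI-1, against 132 and 138 CPM in THP-1 (-0.79, SE 0.162, adjusted p 0.00191). MAF, a macrophage factor, had no read in KASUMI-1 and 22 reads in each THP-1 library, at least 9.94-fold higher. PPARG, a lipid-sensing receptor, and FOS, an AP-1 subunit, were higher in THP-1 by log2 ratios of -4.97 and -4.59. The calls in favour of KASUMI-1 were led by STAT5A, which transmits cytokine signals, with 178 and 203 CPM in KASUMI-1 against 8.9 and 10.9 CPM in THP-1. CEBPE, the factor of late granulocytes, had 46.1 and 58 CPM in KASUMI-1, against 2.77 and 3.14 CPM in THP-1. GFI1, the repressor through which LSD1 is known to act in myeloid cells, was even, with 186 and 251 CPM in KASUMI-1 and 223 and 252 CPM in THP-1 (-0.12, SE 0.183, adjusted p 0.601).

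Granule and secreted innate genes went in both directions, more of them toward THP-1. Of 29 tested, 8 were called higher in KASUMI-1 and 19 higher in THP-1 (median -2.94), and the summed level of the list was 10301 and 14315 CPM in KASUMI-1, against 16145 and 14516 CPM in THP-1. The sums did not overlap, with the 72 h libraries of the lines close to each other. MPO alone made up 6366 and 9304 CPM of the KASUMI-1 sums. The serine proteases of azurophil granules were high in both lines. PRTN3, proteinase 3, had 1508 and 1827 CPM in KASUMI-1, against 880 and 1113 CPM in THP-1 (0.74, SE 0.17, adjusted p 0.00365). ELANE, neutrophil elastase, had 654 and 1058 CPM in KASUMI-1 and 546 and 651 CPM in THP-1, and was not called (0.52, SE 0.217, adjusted p 0.0649), though it was called without the KASUMI-1 6 h or the THP-1 72 h library, with no filter on low counts, and with first or last time as a block (0.48, adjusted p 0.0016). AZU1, azurocidin, had 363 and 527 CPM in KASUMI-1, against 1135 and 1489 CPM in THP-1 (-1.56, SE 0.209). These 3 genes are neighbours on chromosome 19, in the order AZU1 (776097 to 783017), PRTN3 (791985 to 799175) and ELANE (803291 to 807242) on the plus strand of NCBI36 in the deposited table. Promoter letters of AZU1 and PRTN3 are given above. CTSG, cathepsin G of the same granules but on chromosome 14, had 181 and 160 CPM in KASUMI-1, against 1018 and 1339 CPM in THP-1.

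CHI3L1, a chitinase-like secreted protein, had 3.32 and 2.39 CPM in KASUMI-1, against 2230 and 1967 CPM in THP-1, 722-fold. SRGN, the proteoglycan core that packs granule contents, had 79.7 and 72 CPM in KASUMI-1, against 6726 and 5162 CPM in THP-1. It was the highest gene of THP-1 by RPKM (4748) among the genes called at least 2-fold higher there, and KASUMI-1 had 60.6 RPKM. The alarmins S100A8 and S100A9 were higher in THP-1 (-5.70 and -4.93). S100A8 had 1.20 and 2.48 CPM in KASUMI-1, against 132 and 51.0 CPM in THP-1, where the 24 h library was well above the 72 h library. RNASE2, an eosinophil ribonuclease also made by monocytes, had 40.6 and 26.3 CPM in KASUMI-1, against 715 and 762 CPM in THP-1. SERPINB1, an inhibitor of elastase and cathepsin G, had 651 and 857 CPM in KASUMI-1, against 39.3 and 45.9 CPM in THP-1.

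**Figure D4:**
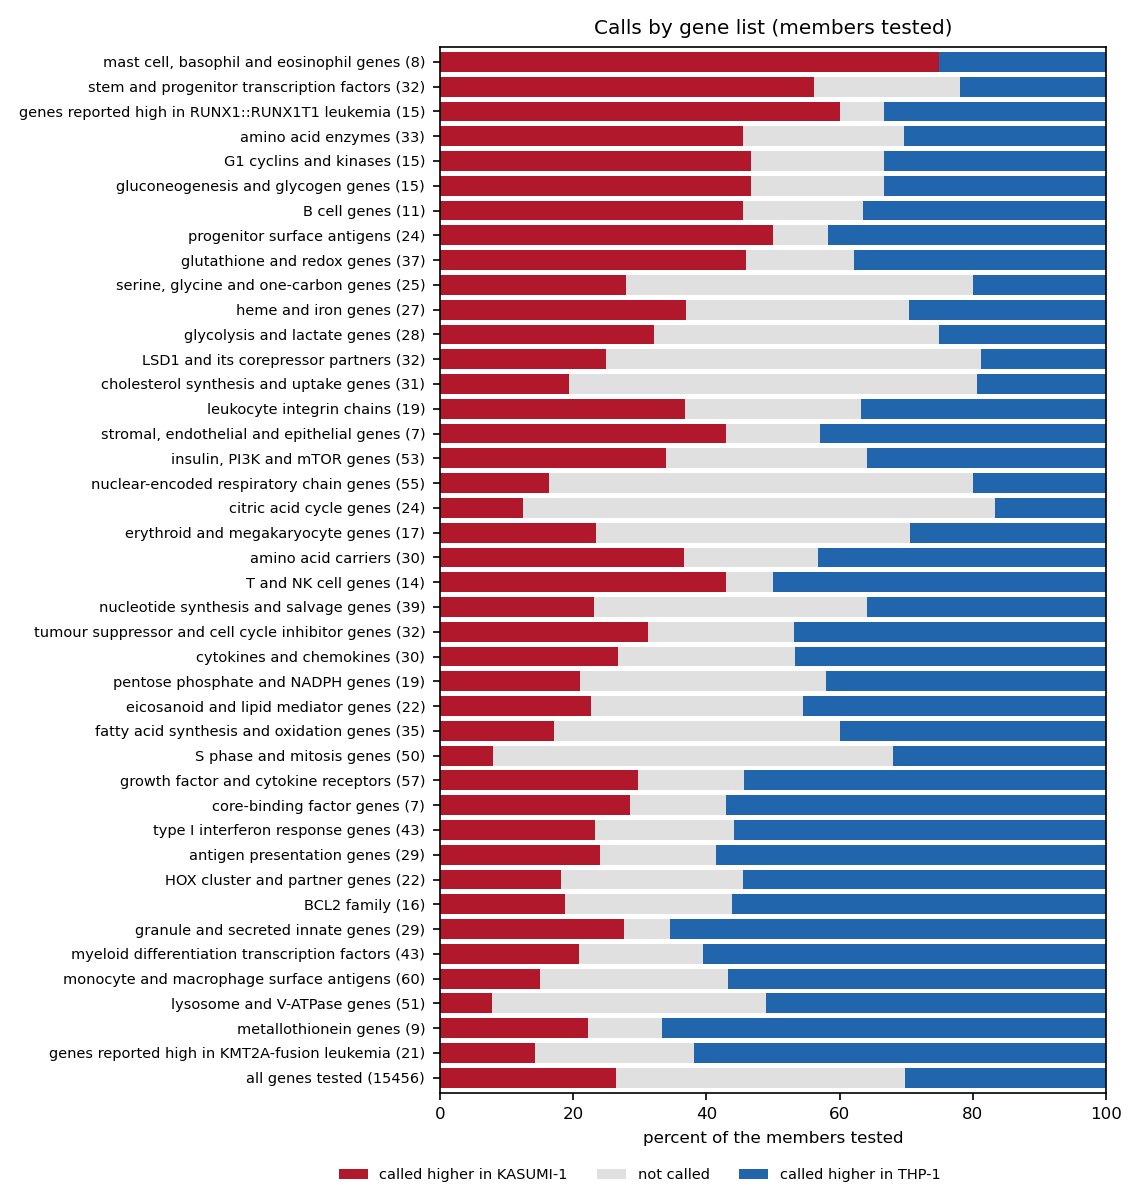
For each gene list with at least 7 members tested, the percent called higher in KASUMI-1 (red, left), not called (grey) and called higher in THP-1 (blue, right), with the number tested in brackets and all 15456 genes tested in the bottom bar. Stem and progenitor factors are mostly red (18 of 32), monocyte surface antigens and lysosome genes mostly blue or grey (34 of 60 and 26 of 51 higher in THP-1), and citric acid cycle genes mostly grey (17 of 24 not called).

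Antigen presentation was split between its class II and class I machinery. HLA-DRA, a class II chain, had 175 and 150 CPM in KASUMI-1, against 5.4 and 3.45 CPM in THP-1 (5.19, SE 0.253). CIITA, the class II transactivator, had 9.63 and 10.2 CPM in KASUMI-1, against 0.344 and 0.84 CPM in THP-1. CD74, the invariant chain, was 4.18-fold higher in KASUMI-1, and HLA-DPA1 (log2 ratio 4.22) and HLA-DPB1 (5.60) were higher there too. HLA-DRB1 and HLA-DQB1 went the other way, with log2 ratios of -1.24 and -1.64. Class I processing genes were higher in THP-1. PSMB9, an immunoproteasome subunit, had 1.7 and 3.43 CPM in KASUMI-1, against 61.6 and 62.1 CPM in THP-1. TAP1, the peptide transporter, had 6.33 and 9.01 CPM in KASUMI-1, against 78.3 and 94.6 CPM in THP-1, and PSMB8 had a log2 ratio of -3.16. B2M, the light chain of class I, was 1.62-fold higher in THP-1. The table's models of HLA, TAP and PSMB genes have exons on several sequences, and HLA alleles differ from the reference, so these values are uncertain. CD1D, which presents lipids and does not have that limit, had 0.0798 and 0.0901 CPM in KASUMI-1, against 47.7 and 28.2 CPM in THP-1. In all, 7 of 29 genes tested were called higher in KASUMI-1 and 17 higher in THP-1, and 2 and 7 of the 11 whose names sit on 1 matching chromosome.

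The type I interferon list had 10 of 43 genes called higher in KASUMI-1 and 24 higher in THP-1 (median -0.76). BST2, tetherin, had 6.54 and 7.26 CPM in KASUMI-1, against 126 and 105 CPM in THP-1. MX2, OAS1, TRIM22, OAS3 and IFI35, antiviral effectors, were also higher in THP-1, with log2 ratios of -3.97, -4.26, -3.62, -3.26 and -3.16. The IFIT genes, RNA-binding antiviral proteins, stood on the other side: IFIT1 had 21.2 and 7.98 CPM in KASUMI-1, against 0.86 and 1.46 CPM in THP-1, IFIT2 had 26.1 and 10.9 CPM in KASUMI-1, against 2.64 and 3.41 CPM in THP-1, and IFIT3 had a log2 ratio of 2.08. OASL (2.96) and HERC5 (2.78) were also higher in KASUMI-1.

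Genes of other blood cell types were mostly low, with exceptions in both lines. The B cell list summed to 115 and 156 CPM in KASUMI-1 and 8.04 and 9.98 CPM in THP-1, with BLK, VPREB1, RAG2 and DNTT at 0 reads in all 4 libraries. IGLL1, a surrogate light chain, had 53.6 and 73.2 CPM in KASUMI-1, against 0.043 and 0.072 CPM in THP-1. CD79B, the partner of CD79A, had 48.6 and 71 CPM in KASUMI-1, against 1.74 and 2.61 CPM in THP-1. PAX5, the B cell master factor, was low in both (2.90 and 3.43 CPM in KASUMI-1, 1.14 and 1.01 CPM in THP-1). Mast cell and eosinophil genes summed to 39.8 and 46.1 CPM in KASUMI-1 and 12.6 and 13.6 CPM in THP-1, with CPA3, a mast cell protease, at 58 and 36 reads in KASUMI-1 and none in THP-1, at least 46.2-fold higher. T and NK cell genes summed to 31.4 and 31 CPM in KASUMI-1 and 40.1 and 39.5 CPM in THP-1, with LCK and KLRD1 at 0 in all 4. CD8A, a T cell co-receptor chain, had 15.4 and 13.5 CPM in KASUMI-1, against 0.086 and 0.024 CPM in THP-1. Of 17 erythroid and megakaryocyte genes tested, 4 (23.5%) were called higher in KASUMI-1 and 5 (29.4%) higher in THP-1. These shares were close to those over all genes tested (26.4% and 30.1%). The globins HBB, HBA1 and HBA2 were at 0 in all 4 libraries, while HBG2 had enough reads to be tested. Reads that map to several places were left out, so a 0 for globin genes with close copies is uncertain. By RPKM, GYPC ranked 152 of 13601 genes in KASUMI-1 and 1309 in THP-1, and KLF1 ranked 9113 and 13417. CA2, carbonic anhydrase 2, had 67.5 and 52.9 CPM in KASUMI-1, against 1673 and 1339 CPM in THP-1, which is most of that list's sum in THP-1 (1775 and 1448 CPM). EPCAM, an epithelial adhesion molecule, had 167 and 129 CPM in KASUMI-1, against 0.258 and 0.288 CPM in THP-1, while COL1A2, COL3A1 and KRT19 were at 0 in all 4.

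Of 32 genes of LSD1 and its partners, 18 were not called, 8 (25.0%) were higher in KASUMI-1 and 6 (18.8%) higher in THP-1 (median -0.05). Over all genes tested the shares were 26.4% and 30.1%, so the share higher in KASUMI-1 was close to that of all genes. With time as a block 12 were called higher in KASUMI-1 and 7 higher in THP-1, and with upper quartile scaling 10 and 5. KDM1A, the gene of LSD1, had 199 and 267 CPM in KASUMI-1, against 108 and 111 CPM in THP-1 (1.08, SE 0.182, adjusted p 0.00052). KDM1B, its paralog, was 2.50-fold higher in KASUMI-1. RCOR1, the CoREST scaffold that holds LSD1 on nucleosomes, had 52 and 43.9 CPM in KASUMI-1, against 101 and 108 CPM in THP-1 (-1.12). GSE1, a further member of the complex, was 3.67-fold higher in THP-1. GFI1B, the erythroid relative of GFI1, was under 1 CPM in all 4 libraries and was not called (0.42).

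Genes around CDKN2A were low in THP-1. CDKN2A, which encodes p16 and ARF, had 165 and 129 reads in KASUMI-1 and 0 and 1 read in THP-1. Relative to library sizes scaled by composition, CDKN2A was 434 times higher in KASUMI-1 (95% counting interval from 77.2 up to 17187). Such intervals cover counting error only. MTAP, a neighbour of CDKN2A and an enzyme of methionine salvage, had 29.8 and 21.8 CPM in KASUMI-1, against 1.72 and 1.03 CPM in THP-1. In the deposited table MTAP spans 21792635 to 22019516 on chromosome 9 of NCBI36 and so overlaps CDKN2A (21957751 to 21984490), and reads were counted without strand. CDKN2B, on the same stretch, had 1 read in each KASUMI-1 library and none in THP-1. In the list of tumour suppressors and cell cycle inhibitors, 10 of 32 genes were called higher in KASUMI-1 and 15 higher in THP-1. CDKN1A, the cell cycle inhibitor p21, had 6.62 and 4.37 CPM in KASUMI-1, against 18.7 and 40.9 CPM in THP-1. TP73, the gene of the transcription factor p73, had no read in KASUMI-1 and 351 and 409 reads in THP-1, at least 172-fold higher.

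Of insulin, PI3 kinase and mTOR genes, 18 of 53 were called higher in KASUMI-1 and 19 higher in THP-1 (median -0.25), but 11 and 18 without the THP-1 24 h library. IRS2, an insulin receptor substrate, had 3.16 and 3.38 CPM in KASUMI-1, against 20.8 and 26.9 CPM in THP-1 (-2.87). IRS1 was low in both lines, with 0.106 and 0.0901 CPM in KASUMI-1 and 0.795 and 0.816 CPM in THP-1 (-2.97). The insulin receptor INSR was 3.36-fold higher in THP-1, opposite to IGF1R, which was 15.5-fold higher in KASUMI-1. AKT1, a kinase that PI3 kinase activates, had 91.1 and 115 CPM in KASUMI-1, against 269 and 280 CPM in THP-1. INPP4B, a lipid phosphatase, was higher in THP-1 (-2.88). DEPTOR, an mTOR inhibitor, had 95 and 100 CPM in KASUMI-1, against 9.31 and 10.7 CPM in THP-1. MTOR itself was nearly level, with 94.7 and 94.1 CPM in KASUMI-1 and 72.2 and 69.6 CPM in THP-1 (0.41, SE 0.157), a call that 7 of 12 alternatives did not make.

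BCL2, which blocks mitochondrial cell death, had 38.7 and 44.8 CPM in KASUMI-1, against 113 and 137 CPM in THP-1 (-1.59, SE 0.18). MCL1, a second such protein, was 1.72-fold higher in THP-1, and BCL2L1, the gene of BCL-xL, was 1.55-fold higher in KASUMI-1, a call lost without either THP-1 library. Of the BCL2 family 3 of 16 were called higher in KASUMI-1 and 9 higher in THP-1, with 1 higher in KASUMI-1 when either THP-1 library was left out and 5 with time as a block. G1 cyclins and MYC genes differed by paralog. CCND2, cyclin D2, had 121 and 152 CPM in KASUMI-1, against 0.537 and 0.576 CPM in THP-1. CCND3, cyclin D3, had 16.5 and 17.3 CPM in KASUMI-1, against 131 and 152 CPM in THP-1. MYC, the widely used member of its family, was 3.54-fold higher in KASUMI-1. MYCN stood high in KASUMI-1, as given above, whereas MYCL had 0.133 and 0.27 CPM in KASUMI-1, against 40.0 and 42.1 CPM in THP-1. Of 50 genes of S phase and mitosis, 30 were not called, 4 were higher in KASUMI-1 and 16 higher in THP-1. With time as a block these were 9 and 23, and with all 8 libraries in the fit 4 and 11. CDC20, an activator of the anaphase-promoting complex, was 5.59-fold higher in THP-1.

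Glycolysis and lactate genes were called higher in KASUMI-1 for 9 of 28 (32.1%) and higher in THP-1 for 7 (25.0%), with a median of 0.14. Over all genes tested these shares were 26.4% and 30.1%. SLC2A3, the glucose carrier GLUT3, had 39.7 and 42.2 CPM in KASUMI-1, against 2.41 and 3.53 CPM in THP-1 (3.79, SE 0.237). SLC2A1, the carrier GLUT1, had 25.2 and 38.4 CPM in KASUMI-1, against 153 and 201 CPM in THP-1 (-2.48, SE 0.236). By RPKM the carriers stood at 10.4 (SLC2A3) and 9.92 (SLC2A1) in KASUMI-1 and at 0.755 (SLC2A3) and 55.3 (SLC2A1) in THP-1. The lactate carriers also lay on opposite sides: SLC16A1 was 2.44-fold higher in KASUMI-1, and SLC16A3 had 10.4 and 19.9 CPM in KASUMI-1, against 140 and 158 CPM in THP-1. HK2, an inducible hexokinase, was 4.62-fold higher in KASUMI-1. HK3, the hexokinase of myeloid cells, had 2 and 1 reads in KASUMI-1 and 419 and 470 reads in THP-1. GAPDH, often used as a reference gene, had 6194 and 6598 CPM in KASUMI-1, against 1768 and 1826 CPM in THP-1, 3.56-fold. ALDOA, the aldolase of the same pathway, was 1.68-fold higher in THP-1.

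In the pentose phosphate and NADPH list, 4 of 19 genes were higher in KASUMI-1 and 8 higher in THP-1. TKT, transketolase, had 444 and 932 CPM in KASUMI-1, against 226 and 228 CPM in THP-1. TKTL1, its X-linked relative, had 0.133 and 0.0451 CPM in KASUMI-1, against 66 and 86 CPM in THP-1. The phagocyte oxidase genes NCF1 (-3.02) and CYBB (-2.58) were higher in THP-1. Among genes of gluconeogenesis and glycogen, 7 of 15 were higher in KASUMI-1 and 5 higher in THP-1. FBP1, fructose bisphosphatase, had 2 and 1 reads in KASUMI-1 and 644 and 619 reads in THP-1, a THP-1 over KASUMI-1 ratio of 285 (95% counting interval from 97.4 up to 1386). PGM1, a phosphoglucomutase of glycogen turnover, was 4.92-fold higher in KASUMI-1. Citric acid cycle genes were mostly not called (17 of 24), and the 7 called ones were under 2-fold except IDH3B, which was 2.05-fold higher in KASUMI-1. Those calls, 3 higher in KASUMI-1 and 4 higher in THP-1, came to 3 and 2 without the KASUMI-1 6 h library, 2 and 2 without the THP-1 24 h library, 1 and 3 without the THP-1 72 h library and 4 and 7 with time as a block. Of 55 nuclear genes of the respiratory chain, 35 were not called, 9 were higher in KASUMI-1 and 11 higher in THP-1. These came to 6 and 7 without the THP-1 24 h library, to 4 and 11 without the THP-1 72 h library, to 14 and 18 with time as a block and to 5 and 14 with no filter on low counts. The largest of these differences were NDUFA9, a complex I subunit 2.83-fold higher in KASUMI-1, and NDUFB10, another, 2.45-fold higher in THP-1.

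Amino acid enzymes were called higher in KASUMI-1 for 15 of 33 and higher in THP-1 for 10 (median 0.44). GOT1, the cytosolic aspartate aminotransferase, had 66 and 61.3 CPM in KASUMI-1, against 11.1 and 10.4 CPM in THP-1. ASNS, asparagine synthetase, had 81.4 and 41.9 CPM in KASUMI-1, against 18.5 and 11.8 CPM in THP-1. SAT1, which acetylates polyamines for export, was 8-fold higher in KASUMI-1. PYCR1, the last enzyme of proline synthesis, had 3 and 1 reads in KASUMI-1 and 2581 and 2223 reads in THP-1 (-9.60). ALDH18A1, an earlier enzyme of the same pathway, was 3.54-fold higher in KASUMI-1. ASS1, argininosuccinate synthase of arginine synthesis, had 3 and 2.97 CPM in KASUMI-1, against 36 and 55 CPM in THP-1. KMO and KYNU, enzymes of tryptophan breakdown, were higher in THP-1 (-5.33 and -4.22), and HAL, which breaks down histidine, was too (-6.18). In the serine and one-carbon list, 13 of 25 genes were not called. CBS, which starts transsulfuration from homocysteine, had 3 reads in each KASUMI-1 library and 1800 and 2075 reads in THP-1 (-8.73), whereas CTH, the next enzyme, was 6.15-fold higher in KASUMI-1.

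Of the amino acid carriers 11 of 30 were higher in KASUMI-1 and 13 higher in THP-1. SLC7A2, a carrier of arginine and lysine, had 91.6 and 88.8 CPM in KASUMI-1, against 3.65 and 3.33 CPM in THP-1. SLC7A1, its relative, was 2.21-fold higher in THP-1, and SLC7A7, an exchanger of the same amino acids, 8.33-fold. SLC6A8, the creatine carrier, had 0.266 and 0.27 CPM in KASUMI-1, against 7.89 and 26.8 CPM in THP-1 (-6.00), with a wide spread over time in THP-1. SLC3A2, the shared heavy chain of several exchangers, was level (0.02, SE 0.164).

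**Figure D5:**
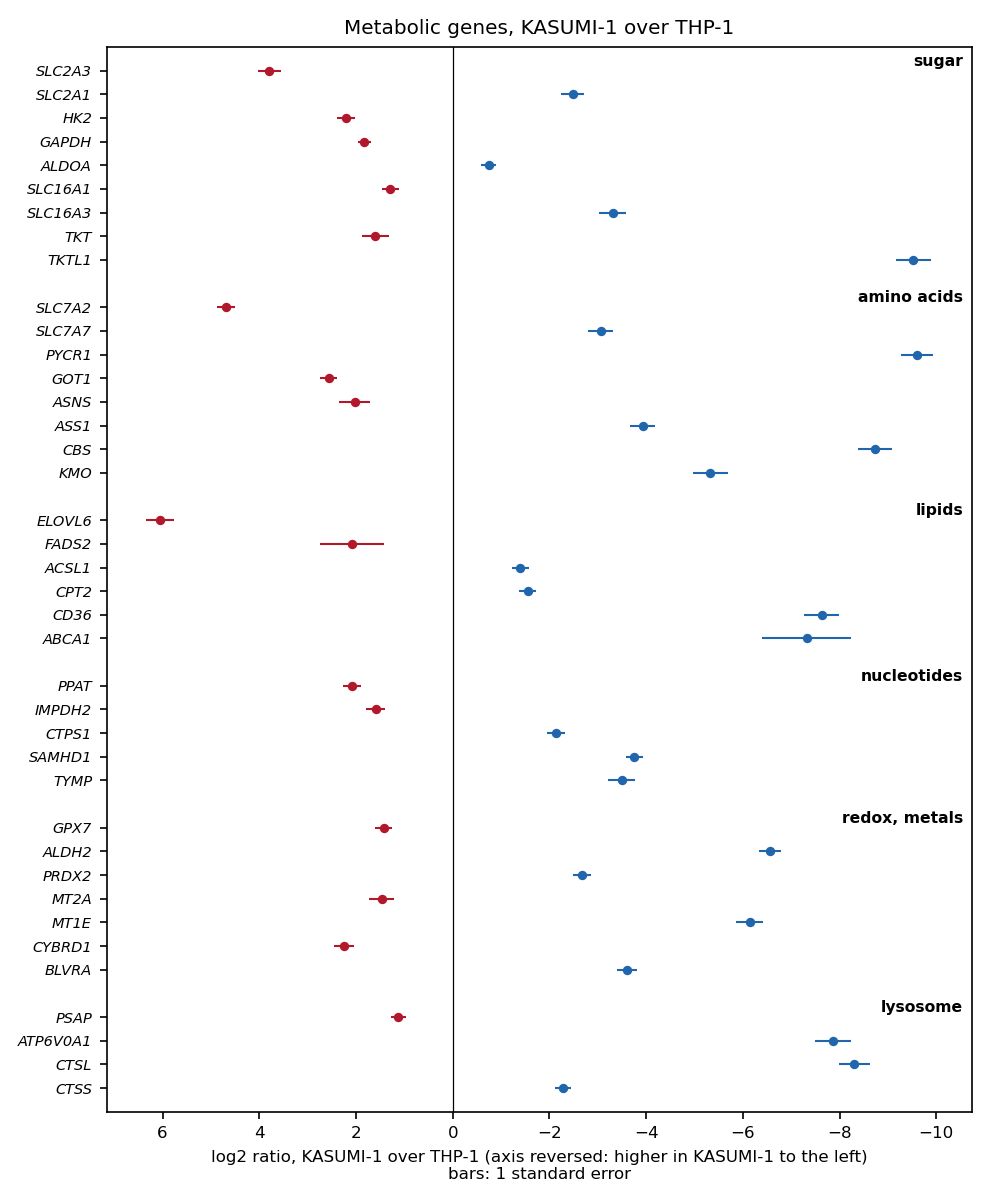
Log2 ratio of KASUMI-1 over THP-1 with 1 standard error for 39 metabolic genes in 6 groups, on a reversed axis so that genes higher in KASUMI-1 (red) lie to the left and genes higher in THP-1 (blue) to the right. Some paralogs lie on opposite sides, as with SLC2A3 (3.79) and SLC2A1 (-2.48), and TKT (1.60) and TKTL1 (-9.53).

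Of cholesterol genes, 19 of 31 were not called, 6 were higher in KASUMI-1 and 6 higher in THP-1 (median 0.36). This count turned on the libraries used: 18 were called higher in KASUMI-1 and 6 higher in THP-1 without the KASUMI-1 6 h library, and 18 and 5 without the THP-1 72 h library. With time as a block they were 16 and 7, and with no filter on low counts 12 and 7. ABCA1, the cholesterol exporter, had 0.16 and 0.0451 CPM in KASUMI-1, against 6.11 and 32.1 CPM in THP-1. Of the fatty acid list 6 of 35 were higher in KASUMI-1 and 14 higher in THP-1. ELOVL6, an elongase of saturated fatty acids, had 36.4 and 53.2 CPM in KASUMI-1, against 0.602 and 0.744 CPM in THP-1. FADS2, a desaturase that DESeq2 did not call, had 136 and 306 CPM in KASUMI-1, against 13.7 and 90.2 CPM in THP-1. LPL, the lipase that frees fatty acids from lipoproteins, had 0 and 1 reads in KASUMI-1 and 1145 and 738 reads in THP-1. CPT2 and ACSL1, which feed fatty acids to oxidation, were 2.93-fold and 2.64-fold higher in THP-1. In the eicosanoid list, PTGS1, cyclooxygenase 1, was 3.89-fold higher in KASUMI-1, while EPHX2, the soluble epoxide hydrolase, had no read in KASUMI-1 and 174 and 194 reads in THP-1, at least 83.2-fold higher.

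Nucleotide genes were called higher in KASUMI-1 for 9 of 39 and higher in THP-1 for 14 (9 without the THP-1 24 h library). PPAT, the first enzyme of purine synthesis, had 181 and 150 CPM in KASUMI-1, against 43.8 and 34.5 CPM in THP-1. PAICS and IMPDH2, later enzymes of purine synthesis, were 2.75-fold and 3.01-fold higher in KASUMI-1. CTPS1, which makes CTP, had 146 and 120 CPM in KASUMI-1, against 644 and 528 CPM in THP-1. SAMHD1, which breaks down deoxynucleotides and the active form of cytarabine, had 17.1 and 17.2 CPM in KASUMI-1, against 219 and 243 CPM in THP-1 (-3.75, SE 0.178). CDA, the cytidine deaminase that inactivates cytarabine, had 1 and 0 reads in KASUMI-1 and 309 and 296 reads in THP-1. DCK, the kinase that activates cytarabine, was level, with 107 and 91.4 CPM in KASUMI-1 and 114 and 98.1 CPM in THP-1 (-0.10, SE 0.171).

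Redox genes were called higher in KASUMI-1 for 17 of 37 (11 without the THP-1 72 h library) and higher in THP-1 for 14. ALDH2, the mitochondrial aldehyde dehydrogenase, had 0.851 and 0.947 CPM in KASUMI-1, against 89.4 and 79.8 CPM in THP-1. PRDX2, a peroxiredoxin, was 6.35-fold higher in THP-1, and GPX7, a glutathione peroxidase relative, 2.70-fold higher in KASUMI-1. The subunits of glutamate cysteine ligase split, with the catalytic GCLC 2.72-fold higher in KASUMI-1 and the modifier GCLM 3.45-fold higher in THP-1. Metallothioneins, small metal-binding proteins, also split by gene. MT2A had 55 and 43.3 CPM in KASUMI-1, against 13.1 and 22.5 CPM in THP-1, while MT1E had 1.33 and 0.721 CPM in KASUMI-1, against 80.7 and 71.5 CPM in THP-1. MT1F had no read in KASUMI-1 and 1300 and 1429 reads in THP-1, at least 617-fold higher. Metallothionein genes are near-identical copies and reads that map to several places were left out, so the share of each is uncertain. In the iron list, CYBRD1, a ferric reductase, was 4.73-fold higher in KASUMI-1 and BLVRA, a biliverdin reductase, 12.2-fold higher in THP-1.

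Lysosome genes leaned to THP-1, with 4 of 51 called higher in KASUMI-1 (7 with time as a block) and 26 higher in THP-1, against 26.4% and 30.1% of all genes tested. The count higher in THP-1 was 24 with upper quartile scaling and 28 with no filter on low counts. The median log2 ratio was -0.52, and -0.53 to -0.44 with a library left out. CTSL, cathepsin L, had 0.213 and 0.0901 CPM in KASUMI-1, against 57.4 and 49.6 CPM in THP-1. ATP6V0A1, a subunit of the proton pump, had 0.0798 and 0.0901 CPM in KASUMI-1, against 18 and 22.4 CPM in THP-1. CTSS, cathepsin S of antigen presenting cells, was 4.89-fold higher in THP-1, and TFEB, a factor that drives lysosome genes, 8.20-fold. PSAP, the precursor of sphingolipid activators, was 2.18-fold higher in KASUMI-1.

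The largest ratios among genes of moderate or high level named further genes of each line. In KASUMI-1 they included PRSS21, TRH, ITPRIPL1, STK32B, EMD, IGLL1, CYTL1, NR5A2, RAB34, ANGPT1 and MYCN, with log2 ratios of 9.48 to 10.51. ITPRIPL1, STK32B and NR5A2 had 0 to 3 reads over both THP-1 libraries, so their fitted ratios depend on the prior count added in the fit and are given only as a ranking. PRSS21, a membrane serine protease, had 62.4 and 79.9 CPM in KASUMI-1, against 0.0645 and 0.024 CPM in THP-1. EMD, the nuclear envelope protein emerin, had 1919 and 1149 reads in KASUMI-1 and 3 and 1 reads in THP-1, although emerin is made by nearly all cells. ANGPT1, the ligand of the endothelial receptor TIE2, had 61.9 and 93 CPM in KASUMI-1, against 0.043 and 0.168 CPM in THP-1. In THP-1 they were HSD11B1, BHLHE22, MT1F, CLSTN2, VIT, TBX18, BEX3, RTL6, SERPINB2, CD70, LPL and MYBPH, the first 5 of which had no read in KASUMI-1. HSD11B1, which regenerates active glucocorticoid, had 2051 and 1497 reads in THP-1, at least 802-fold higher. SERPINB2, the plasminogen activator inhibitor of monocytes, had 0.293 and 0.135 CPM in KASUMI-1, against 308 and 208 CPM in THP-1. CD70, the ligand of CD27, had 0.133 and 0.0451 CPM in KASUMI-1, against 99.9 and 123 CPM in THP-1.

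By RPKM, the genes of highest level among those at least 2-fold higher in KASUMI-1 were names of ribosomal proteins: RPLP0P2, RPL41, RPS24, RPLP1, RPS11P5, RPS3P3, RPL6P27 and RPS12. They stood 2.48 to 4.02-fold higher in KASUMI-1. Several are pseudogene names and all belong to families with many near-identical copies, so reads may be shared out wrongly among them. The corresponding THP-1 genes were SRGN, YBX1, CAP1, ACTB, PPT1, MYL6, LGALS1 and CTSG. CAP1, an actin-binding protein, had 348 and 329 CPM in KASUMI-1, against 11808 and 12482 CPM in THP-1, 35.9-fold. PPT1, a lysosomal thioesterase, was 16.6-fold and YBX1, a nucleic acid binding protein, 3.89-fold higher in THP-1. These 3 genes lie near each other on chromosome 1 of NCBI36, CAP1 at 40278492 to 40310908, PPT1 at 40310972 to 40335555 and YBX1 at 42920653 to 42940600. Between PABPC4 and SLC2A1, a stretch singled out because earlier results of these data had shown it, 50 genes were tested, of which 1 was called at least 2-fold higher in KASUMI-1 and 43 in THP-1 (median -2.56). MYCL and SLC2A1, described above, lie in the same stretch.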

How the data were processed

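The files hold raw read counts per gene name, deposited for 8 libraries as 1 table with gene lengths. Per the file headers, featureCounts 1.5.2 counted exon reads from 1 TopHat alignment per library against Ensembl release 54 gene models on NCBI build 36, with no option for strand or for reads mapping to several places. Those reads were therefore left out, so paralogs and pseudogenes may be undercounted, and antisense or overlapping genes share reads. FastQC 0.10.0, TopHat2 2.0.10, Subread and edgeR stand in the submitters' processing notes.

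Of 33045 names, 16840 were current symbols and 3168 were matched through an older symbol on the same chromosome. Levels are CPM from library sizes scaled by the trimmed mean of M-values (TMM), or RPKM from these and the deposited lengths. The test was edgeR 4.0.16 (R 4.3.3), quasi-likelihood F, over the 4 vehicle libraries with line as the term, filterByExpr with a minimum count of 10, and Benjamini-Hochberg adjustment over 15456 genes at 0.05. With 2 libraries a line there were 2 residual degrees of freedom, and the spread was moderated over genes. The test was tried on simulated data. "At least" folds take a group with 0 reads at a floor of 3 reads over the group. Ratios with 1 to 3 reads in a line carry exact 95% conditional binomial intervals. Alternatives were DESeq2 1.42.0, limma 3.58.1 (voom), other scalings and filters, each library left out, time as a block, and all 8 libraries.

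Members and lists were chosen with earlier results of these data known. Genes named were a fixed set, the 12 largest ratios in each direction (average log2 CPM of at least 3), the 8 highest RPKM in each line among calls of at least 2-fold, and up to 6 called members of a list in each direction, with partners or relatives of these. CSF3R, NOTCH2, IL10RA, IL21R, CX3CR1, ZNF521, FOS, IFI35, RNASE2, GPX7 and DCK were named after their values were seen. A few named genes are not reported here.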

Additional observations from a re-analysis of the deposited data

How the results depend on the processing

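No alternative moved the number of genes called by 1.5 times, apart from a test against a 2-fold difference, which by construction called fewer (4060). The other settings called 7157 to 10278 genes, against 8736, and 5063 to 6377 at least 2-fold apart, against 5863. The share of calls that were higher in KASUMI-1, 46.7%, came to 49.2% with upper quartile scaling, 43.7% with no filter on low counts and 45.2% with DESeq2, and to 43.7% to 46.4% with a library left out. The first or last time as a block called 10278 genes. That block is a term for time, which sets the 6 h and 24 h libraries together and the 72 h libraries together. No paired analysis was possible because the labels tie no KASUMI-1 culture to a THP-1 culture, and the replicate numbers only follow accession order. Keeping only names with a current symbol on 1 matching chromosome, chosen after seeing the data, called 7811 genes.

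FLI1, GFI1, CD86, DCK and SLC3A2, which were not called, changed sign. The log2 ratio of FLI1 was 0.02 with upper quartile scaling and 0.08 at 72 h alone, and -0.19 to 0.13 with a library left out. Leaving out a library gave -0.35 to 0.09 for GFI1, -0.07 to 0.27 for CD86, -0.22 to 0.01 for DCK and -0.09 to 0.1 for SLC3A2, which was -0.03 with no filter. The cause was not tested. MTOR, HOXA2, BCL2L1 and FADS2 lost their call under at least 1 alternative. ELANE and HOXA4 gained one. At 72 h, the only time of both lines, there is 1 library a line and no test. Of 257 named ratios 114 moved by more than 1 SE (CD14 to -2.07) and 1 changed sign. The 72 h ratios were taken from log2 CPM with a prior count of 2, unlike the fitted ratios. That prior count shrinks the ratios of genes with few reads, so for such genes these moves also reflect that setting. Depth limits genes with few reads in a line.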

Other observations

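Cytokine genes not described above were higher in either line. TNFSF13B, the B cell survival factor BAFF, had 38.3 and 49.3 CPM in KASUMI-1, against 5.96 and 4.87 CPM in THP-1. IL16, a chemoattractant for CD4-bearing cells, had 57.6 and 81.9 CPM in KASUMI-1, against 11.7 and 6.79 CPM in THP-1, and IL1B, an inflammatory cytokine, had 8.7 and 6.49 CPM in KASUMI-1, against 2.41 and 1.49 CPM in THP-1. HBEGF, a ligand of the epidermal growth factor receptor, had 0.957 and 1.4 CPM in KASUMI-1, against 8.26 and 7.44 CPM in THP-1. IL23A, a subunit of interleukin 23, was also higher in THP-1 (log2 ratio -2.67). All 5 were called by the edgeR quasi-likelihood test with Benjamini-Hochberg adjustment.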
